A study of Mus musculus with 9 samples.

Results

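Aminoacyl-tRNA synthetases, the enzymes that load each transfer RNA with its amino acid, were followed while a mouse stromal cell line was induced toward osteoblasts. The family was taken from the array annotation by gene symbol. Every probe set assigned to 1 gene whose symbol is that of a synthetase was kept, and probe sets of the same gene were averaged. This gave 34 genes of the 22180 measured (35 of 33794 probe sets), 18 of them for cytosolic and 16 for mitochondrial enzymes. Symbols are those of the annotation, so Lars and Iars are the cytosolic leucyl and isoleucyl enzymes, and a symbol that ends in 2 is a mitochondrial enzyme. Gars and Kars make both the cytosolic and the mitochondrial enzyme from 1 gene and were counted as cytosolic.

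Each synthetase joins its amino acid to the matching tRNA at the expense of ATP, and the charged tRNA then feeds the ribosome. The enzymes fall into 2 unrelated catalytic classes, class I and class II. In mammals several cytosolic synthetases sit together in a large multi-tRNA synthetase complex, while the mitochondrial enzymes are nuclear-encoded, imported and serve the few proteins made inside the organelle. In mammalian cells many cytosolic synthetase genes are known targets of ATF4, a transcription factor of the amino acid and endoplasmic reticulum stress responses, and of Myc, a factor that drives growth genes.

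The cells were MSC2, a line grown from a single clone of mesenchymal stromal cells from the bone marrow of C57BL/6 mice aged 6 weeks, so all groups share 1 clone. Undifferentiated cells were kept in alpha-MEM free of ascorbic acid. Confluent cells were induced for 14 or 28 days in DMEM that held 1 mM pyruvate, 10 mM beta-glycerophosphate, 0.1 µM dexamethasone and 0.2 mM ascorbate phosphate. Serum was at 10% in both media. Each of the 3 groups has 3 arrays, which the series text calls independent, without saying whether they came from separate cultures. The p-values measure the spread between these arrays. Medium, confluence and time in culture differ along with induction, and these samples include no cells kept uninduced for 14 or 28 days.

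Values are RMA signals on a log scale taken as log2, centred so that each probe set has a median of 0 over the 9 arrays. Such values show differences between groups and not how abundant an RNA is, and a higher value is assumed to mean more RNA. Ties are common, with 15.2% to 28.1% of each array's values at exactly 0. Gene by gene, 2 arrays of the same group differed with an SD of 0.103 to 0.146 over 9 pairs of arrays. This SD was 0.464 to 0.475 between 14-day and undifferentiated arrays and 0.539 to 0.552 between 28-day and undifferentiated arrays. Of 6 osteoblast markers, Alpl was higher (0.50 at 14 days, 0.46 at 28 days, on the log2 scale) and Col1a1 lower (-0.26 and -0.39). Sp7, Ibsp, Bglap and Dmp1 passed no test at either time. Of 5 macrophage markers Csf1r (1.81 and 2.10) and Cd68 (0.30 and 0.75) rose at both times and Ptprc, Adgre1 and Lyz2 did not pass. The mean of the 5 per array was -0.46 to -0.33 in undifferentiated cells, -0.07 to 0.06 at 14 days and 0.08 to 0.13 at 28 days. Of 5 adipocyte markers Fabp4 (3.50 and 3.63) and Lpl (0.42 and 0.71) rose at both times, and Adipoq, Plin1 and Cebpa did not pass. The mean of these 5 per array was -0.85 to -0.75, -0.04 to 0.07 and 0.01 to 0.14 in the same order. Of 4 endothelial markers 2 rose at 14 days and 3 at 28 days, and of 4 chondrocyte markers 1 and 2. The largest changes in these lists were those of Kdr (1.91 at both times) and Sox9 (0.94 and 0.80). Of 7 stromal markers 2 rose and 2 fell at 14 days, and 2 rose and 1 fell at 28 days. Over all genes 18.2% were called higher and 17.5% lower at 14 days, and 20.4% and 19.5% at 28 days. Whether a marker is absent cannot be read from centred values. Their part in the results below was not tested.

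The stretches of DNA around the start of the gene are shown for the members on which the promoter comparison turns. They come from the RefSeq promoter table (assembly GRCm38.p6), which holds 25 of the 34 members, 11 cytosolic and 14 mitochondrial. Each window runs from 100 bases before to 30 bases after the start and is written 5′ to 3′ on the strand of the gene. Capitals mark 2 motifs, each searched on both strands over the table's full windows of 250 bases before to 50 bases after the start. TGATGNAA is the core of the element bound by C/EBP-ATF pairs such as those with ATF4, and CACGTG is the E-box bound by Myc with Max. The 2 motifs do not overlap in these windows. The first 4 genes carry TGATGNAA, and their changes at 14 days were -0.75, -0.84, -0.65 and -0.63 on the log2 scale. Kars carries neither motif and changed as much (-0.75), and Qars and Sars carry neither and were the 2 cytosolic genes that did not pass the test at 14 days. Eprs, Farsa and Mars1, whose windows are not printed, also carry neither motif. Their changes at 14 days were -0.51, -0.44 and -0.37, and all passed the test.
Gars, glycyl enzyme, chr6:55037901-55038030, plus strand: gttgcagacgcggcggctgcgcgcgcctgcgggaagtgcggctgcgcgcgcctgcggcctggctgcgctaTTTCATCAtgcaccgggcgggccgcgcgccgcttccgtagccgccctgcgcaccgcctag
Iars, isoleucyl enzyme, chr13:49682030-49682159, plus strand: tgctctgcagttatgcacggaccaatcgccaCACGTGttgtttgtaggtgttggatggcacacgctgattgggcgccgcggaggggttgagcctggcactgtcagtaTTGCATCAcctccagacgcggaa
Tars, threonyl enzyme, chr15:11399629-11399758, minus strand: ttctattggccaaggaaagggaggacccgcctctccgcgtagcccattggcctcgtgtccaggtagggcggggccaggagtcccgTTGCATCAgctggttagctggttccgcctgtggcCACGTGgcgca
Yars, tyrosyl enzyme, chr4:129189803-129189932, plus strand: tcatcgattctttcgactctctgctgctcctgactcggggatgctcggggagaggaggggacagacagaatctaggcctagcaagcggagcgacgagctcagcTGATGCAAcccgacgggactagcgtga
Kars, lysyl enzyme, chr8:112011325-112011454, minus strand: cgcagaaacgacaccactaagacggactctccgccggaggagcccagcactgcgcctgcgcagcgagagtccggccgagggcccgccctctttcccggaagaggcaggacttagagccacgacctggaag
Qars, glutaminyl enzyme, chr9:108507905-108508034, plus strand: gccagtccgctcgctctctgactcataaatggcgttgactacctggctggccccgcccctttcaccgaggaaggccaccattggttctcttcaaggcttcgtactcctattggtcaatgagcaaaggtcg
Sars, seryl enzyme, chr3:108445230-108445359, minus strand: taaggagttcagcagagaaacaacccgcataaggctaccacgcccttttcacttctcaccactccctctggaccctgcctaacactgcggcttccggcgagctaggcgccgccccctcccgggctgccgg

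At 14 days of induction most synthetase genes were lower than in undifferentiated cells, and the cytosolic genes had the lower median. Calls here are limma adjusted p values under 0.05 from a fit over all genes. Of the 18 cytosolic genes, 16 fell, 0 rose and 2 did not pass. Of the 16 mitochondrial genes, 8 fell, 2 rose and 6 did not pass. Over all 22180 genes 35.7% were called, 17.5% lower and 18.2% higher. The share that fell was 88.9% of the cytosolic genes. The median change was -0.61 over the cytosolic genes, -0.22 over the mitochondrial genes and 0.00 over all genes tested, on the log2 scale. After quantile normalization of the deposited values the cytosolic median was -0.34, and Hars, Rars, Mars2, Tars2 and Fars2 no longer passed. That step gives every array the same spread of centred values, so it can shrink differences between the groups by itself. In bulk RNA, fewer cells that express a gene and less of its RNA per cell cannot be told apart.

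At 28 days the picture was the same in direction. Of the 18 cytosolic genes, 16 fell and 0 rose, and of the 16 mitochondrial genes 10 fell and 1 rose. Over all genes 39.9% were called, 19.5% lower and 20.4% higher. The median change was -0.72 over the cytosolic genes and -0.27 over the mitochondrial genes, beside 0.02 over all genes. After quantile normalization the cytosolic median was -0.47, and Ears2 and Fars2 no longer passed. Among the 34 genes 24 fell at both times, 16 of them cytosolic and 8 mitochondrial. The 6 genes called at neither time were Aars2, Hars2, Nars2, Pars2, Qars and Sars. Both comparisons share the undifferentiated arrays.

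A fold threshold left mainly cytosolic genes. At 14 days 10 of the 18 cytosolic genes and 2 of the 16 mitochondrial genes (Cars2 and Wars2) were called lower by at least 1.5-fold, beside 5.05% of all genes. At 28 days there were 12 cytosolic and 3 mitochondrial genes, with Yars2 as the third, beside 6.67% of all genes. Without Gars and Kars, which serve both compartments, 14 of 16 cytosolic genes fell at each time.

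**Figure D1:**
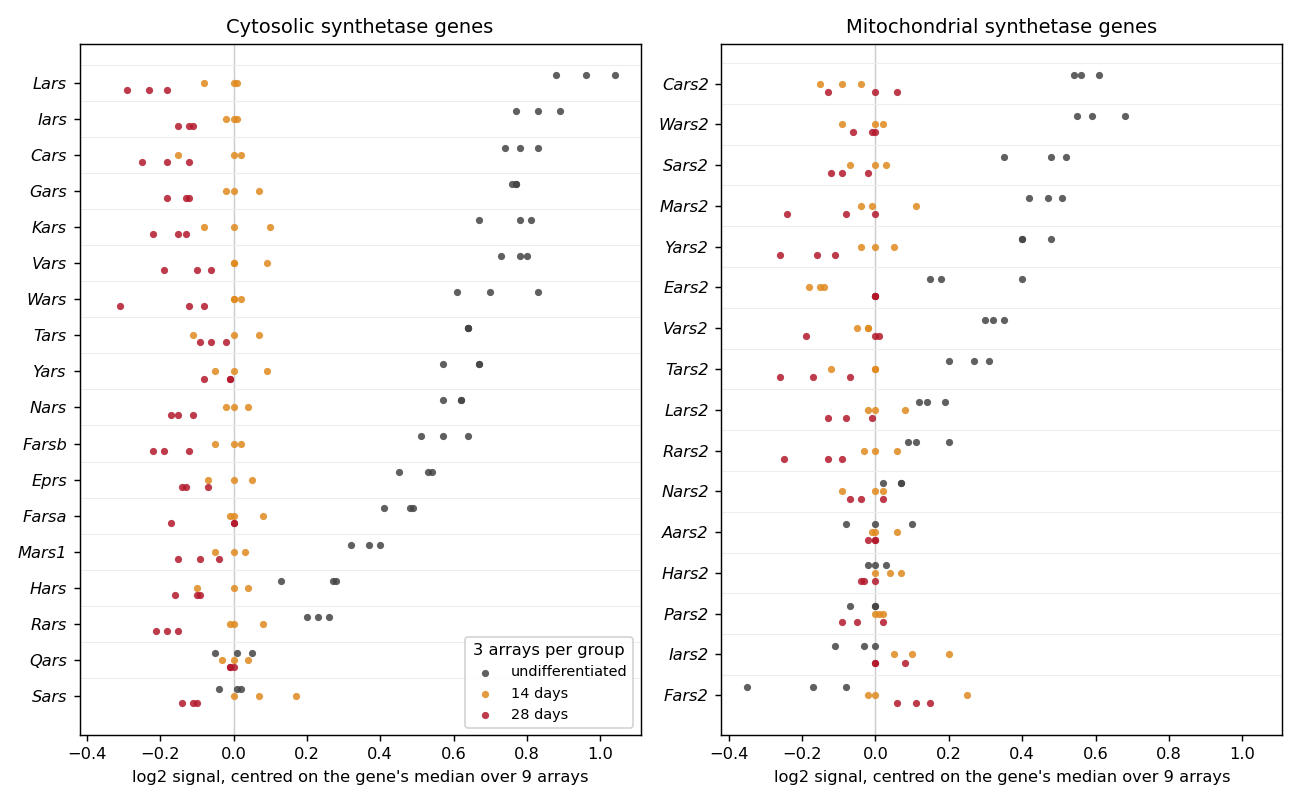
The centred log2 signal of each of the 34 synthetase genes in the 9 arrays, with the cytosolic genes on the left and the mitochondrial genes on the right, ordered by the change at 14 days. Points are single arrays (3 undifferentiated, 3 at 14 days and 3 at 28 days). The undifferentiated arrays of Lars reach 1.04, and the highest induced value is 0.25, in Fars2 at 14 days. Centring on the median of 9 arrays, most of them induced, places the induced arrays near 0 by construction.

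The largest falls at 14 days were those of Lars, Iars and Cars, all cytosolic enzymes of class I. Lars, the leucyl enzyme, which in mammals also acts as a leucine sensor for mTORC1, had signals of 1.04, 0.96 and 0.88 in undifferentiated cells, 0.01, 0.00 and -0.08 at 14 days and -0.29, -0.23 and -0.18 at 28 days. The 3 groups do not overlap. Lars fell by 0.98 on the log2 scale at 14 days (SE 0.05, limma adjusted p = 1.53e-07), which is 1.98-fold lower than in undifferentiated cells. At 28 days the change was -1.19 (limma adjusted p = 2.66e-08).

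Iars, the isoleucyl enzyme, had 0.77, 0.89 and 0.83 in undifferentiated cells, 0.00, 0.01 and -0.02 at 14 days and -0.12, -0.15 and -0.11 at 28 days. Every induced array lay below every undifferentiated array. The changes were -0.84 at 14 days (SE 0.04, limma adjusted p = 8.59e-08) and -0.96 at 28 days (limma adjusted p = 2.26e-08). Cars, the cysteinyl enzyme, had 0.78, 0.83 and 0.74 in undifferentiated cells, 0.02, 0.00 and -0.15 at 14 days and -0.25, -0.18 and -0.12 at 28 days. Its changes were -0.82 (SE 0.06, limma adjusted p = 9.8e-07) and -0.97 (limma adjusted p = 2.3e-07), and its 14-day and 28-day arrays overlap. Vars, the valyl enzyme, had 0.80, 0.73 and 0.78 in undifferentiated cells, 0.00, 0.00 and 0.09 at 14 days and -0.19, -0.10 and -0.06 at 28 days. Vars was thus 1.68-fold lower at 14 days, with an SE of 0.05 on the log2 scale (limma adjusted p = 4.87e-07).

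The 2 aromatic class I enzymes fell as well. Wars, the tryptophanyl enzyme, which interferon also induces in many cell types, had the largest SE of the cytosolic members. It had 0.61, 0.70 and 0.83 in undifferentiated cells, 0.02, 0.00 and 0.00 at 14 days and -0.31, -0.12 and -0.08 at 28 days. The groups still do not overlap, and the changes were -0.71 (SE 0.07, limma adjusted p = 1.59e-05) and -0.88 (limma adjusted p = 2.36e-06). Yars, the tyrosyl enzyme, changed by -0.63 (limma adjusted p = 2.66e-06) and -0.68 (limma adjusted p = 1.2e-06).

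Among the class II cytosolic enzymes, Gars and Kars fell most. Gars had 0.77, 0.77 and 0.76 in undifferentiated cells, 0.07, 0.00 and -0.02 at 14 days and -0.12, -0.18 and -0.13 at 28 days. Its changes were -0.75 (SE 0.04, limma adjusted p = 1.48e-07) and -0.91 (limma adjusted p = 2.56e-08). Kars, which charges lysine in both compartments, had 0.67, 0.78 and 0.81 in undifferentiated cells, 0.10, -0.08 and 0.00 at 14 days and -0.22, -0.15 and -0.13 at 28 days. All 3 groups of Kars are apart, and the changes were -0.75 (SE 0.06, limma adjusted p = 1.92e-06) and -0.92 (limma adjusted p = 3.07e-07).

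Tars, the threonyl enzyme, had 0.64 in each undifferentiated array, 0.07, 0.00 and -0.11 at 14 days and -0.02, -0.06 and -0.09 at 28 days. It changed by -0.65 (limma adjusted p = 2.08e-06) at 14 days and -0.69 (limma adjusted p = 1.05e-06) at 28 days, so nearly all of its fall was present at 14 days. Nars, the asparaginyl enzyme, changed by -0.60 and -0.75. The phenylalanyl enzyme is a tetramer of 2 kinds of subunit, and both fell. Farsb, the beta subunit, changed by -0.58 (limma adjusted p = 3.32e-06) and -0.75, and Farsa, the alpha subunit, by -0.44 (limma adjusted p = 9.53e-05) and -0.52. Hars, the histidyl enzyme, had the smallest called change of the cytosolic class II enzymes, -0.25 (SE 0.06, limma adjusted p = 0.00459) at 14 days and -0.34 at 28 days.

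Members of the multi-tRNA synthetase complex ranged from the largest fall of the family to no call. Of its 7 measured enzymes (Eprs, Iars, Kars, Lars, Mars1, Qars and Rars) 6 fell at each time, with median changes of -0.51 at 14 days and -0.62 at 28 days. Of the 11 cytosolic genes outside it 10 fell at each time, with medians of -0.63 and -0.75. The difference between these 2 sets was not tested. Within the complex the changes ran from that of Lars to that of Qars, which had 0.01, -0.05 and 0.05 in undifferentiated cells, 0.04, 0.00 and -0.03 at 14 days and -0.01, -0.01 and 0.00 at 28 days. The Qars arrays of all 3 groups overlap, and the estimates were 0.00 at 14 days (SE 0.04, limma adjusted p = 0.999) and -0.01 at 28 days (limma adjusted p = 0.926). The 95% interval of the change of Qars was -0.09 to 0.09 at 14 days.

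Eprs, a fused enzyme for glutamate and proline, changed by -0.51 (limma adjusted p = 7.82e-06) and -0.62. Mars1, the methionyl enzyme, which loads the initiator tRNA, changed by -0.37 (limma adjusted p = 7.78e-05) and -0.45. Rars, the arginyl enzyme, had 0.23, 0.26 and 0.20 in undifferentiated cells, 0.08, -0.01 and 0.00 at 14 days and -0.18, -0.15 and -0.21 at 28 days. The 3 groups do not overlap. Its change was -0.21 (SE 0.04, limma adjusted p = 0.0026) at 14 days and -0.41 (limma adjusted p = 1.57e-05) at 28 days. Of the scaffold proteins of the complex, Eef1e1 (also named Aimp3) changed by -0.99 and -1.18 and Aimp1 by -0.14 and -0.18, and all 4 changes passed the test.

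The catalytic classes were counted within each compartment. Leaving out the fused Eprs, 8 of 9 class I and 7 of 8 class II cytosolic genes fell at 14 days, with medians of -0.71 and -0.59. Of the mitochondrial genes, 6 of 9 in class I fell and 1 rose at 14 days (median -0.40), against 2 of 7 in class II that fell and 1 that rose (median 0.01). At 28 days these were 8 and 0 of 9 in class I (median -0.38), and again 2 and 1 of 7 in class II (median -0.03). Over all genes 17.5% were called lower and 18.2% higher at 14 days, and 19.5% and 20.4% at 28 days. The share of mitochondrial class II genes called was 42.9% at each time, near the 35.7% and 39.9% of all genes. No test of a difference between classes was made.

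**Figure D2:**
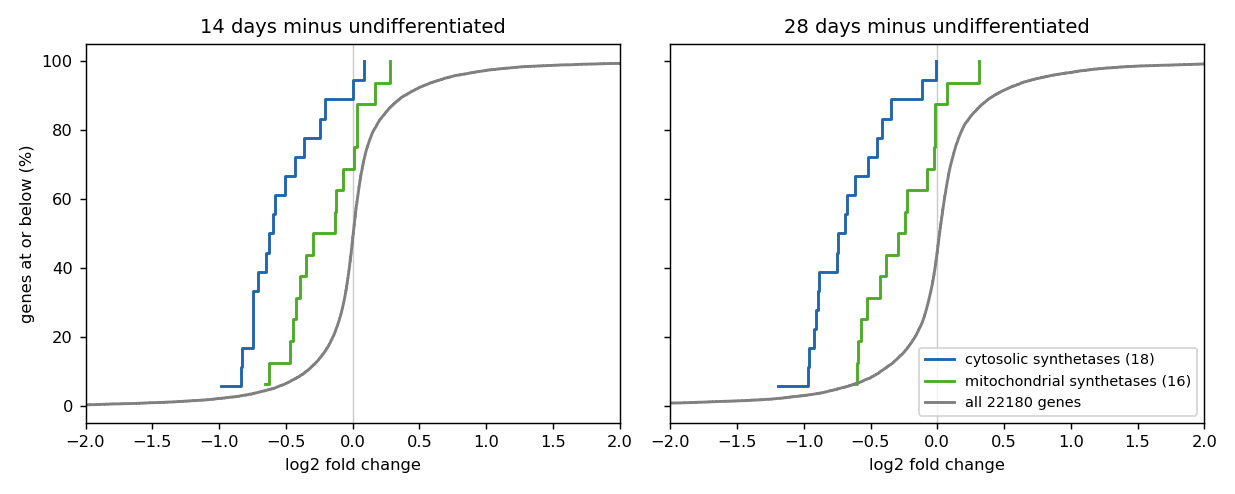
The cumulative share of genes (vertical axis, percent) at or below each log2 fold change (horizontal axis) for the 18 cytosolic genes, the 16 mitochondrial genes and all genes measured, at 14 days on the left and 28 days on the right, each against undifferentiated cells. The cytosolic line crosses the middle of the axis at -0.61 and -0.72, the mitochondrial line at -0.22 and -0.27 and that of all genes near 0.

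Among the mitochondrial enzymes the largest falls were those of Cars2 and Wars2. Cars2, the mitochondrial cysteinyl enzyme, had 0.61, 0.56 and 0.54 in undifferentiated cells, -0.04, -0.15 and -0.09 at 14 days and 0.00, -0.13 and 0.06 at 28 days. It changed by -0.66 (SE 0.06, limma adjusted p = 4.81e-06) and -0.59 (limma adjusted p = 9.33e-06), and its 14-day and 28-day arrays overlap. Wars2, the mitochondrial tryptophanyl enzyme, had 0.68, 0.55 and 0.59 in undifferentiated cells, 0.00, -0.09 and 0.02 at 14 days and -0.01, 0.00 and -0.06 at 28 days. Its change was -0.63 at both times (limma adjusted p = 2.17e-06 and 1.74e-06).

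Sars2, the mitochondrial seryl enzyme, changed by -0.47 and -0.53, and Mars2, the methionyl enzyme of mitochondria, by -0.45 and -0.57. Yars2, the tyrosyl enzyme, had 0.40, 0.40 and 0.48 in undifferentiated cells, -0.04, 0.00 and 0.05 at 14 days and -0.11, -0.26 and -0.16 at 28 days. Its 3 groups are apart, with changes of -0.42 (limma adjusted p = 6.28e-05) and -0.60 (limma adjusted p = 3.34e-06). Vars2 changed by -0.35 and -0.38 and Tars2 by -0.30 and -0.43, all 4 passing the test. Lars2 and Rars2 passed at 28 days (-0.23, limma adjusted p = 0.00284, and -0.30, limma adjusted p = 0.00108) and not at 14 days (-0.13, limma adjusted p = 0.0547, and -0.13, limma adjusted p = 0.0992). The direct comparison of 28 with 14 days passed for neither of them. Lars2 passed at 14 days as well without the first 14-day array (-0.16, limma adjusted p = 0.0341), or without the first or the second 28-day array.

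Ears2, the mitochondrial glutamyl enzyme, which also takes part in making glutaminyl-tRNA there, had 0.18, 0.40 and 0.15 in undifferentiated cells, -0.18, -0.15 and -0.14 at 14 days and 0.00 in each array at 28 days. Its estimate was lowest at 14 days, with changes of -0.40 (SE 0.06, limma adjusted p = 0.000442) and -0.24 (limma adjusted p = 0.00954). The direct comparison of 28 with 14 days did not pass (0.16, limma adjusted p = 0.187). The tied 28-day arrays understate the spread of Ears2.

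Fars2, the mitochondrial phenylalanyl enzyme, which acts as a single chain, went the other way. It had -0.08, -0.17 and -0.35 in undifferentiated cells, 0.25, 0.00 and -0.02 at 14 days and 0.06, 0.11 and 0.15 at 28 days. Its undifferentiated arrays lay below all induced arrays, and it rose by 0.28 (SE 0.08, limma adjusted p = 0.0244) and 0.31 (limma adjusted p = 0.0136). Without the third undifferentiated array these were 0.21 (limma adjusted p = 0.0926) and 0.23 (limma adjusted p = 0.053). Without the first 14-day array the change at 14 days was 0.19 (limma adjusted p = 0.0851), and after quantile normalization neither passed. Iars2, the mitochondrial isoleucyl enzyme, had -0.03, -0.11 and 0.00 in undifferentiated cells, 0.20, 0.10 and 0.05 at 14 days and 0.08, 0.00 and 0.00 at 28 days. It rose by 0.17 at 14 days (SE 0.05, limma adjusted p = 0.0299). Leaving out the first or the second 14-day array, or the first or the second undifferentiated array, ended that call (0.12 to 0.18, limma adjusted p = 0.0571 to 0.112). At 28 days its change of 0.08 did not pass.

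The other 4 mitochondrial genes, Aars2, Hars2, Nars2 and Pars2, had no call at either time and stayed within 0.08 of the undifferentiated mean on the log2 scale at both times, and their arrays overlap. Nars2 is the member with 2 probe sets, and these differ. At 28 days the first changed by -0.19 (limma adjusted p = 0.00548, probe sets tested singly) and the second by 0.03 (limma adjusted p = 0.725).

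Set side by side for the same amino acid, the cytosolic enzyme fell by more than the mitochondrial enzyme in 11 of 13 amino acids at 14 days and at 28 days. The measure is the cytosolic minus the mitochondrial value in each array, so that shifts common to both genes drop out. In 9 of the 11 at 14 days, and 8 of the 11 at 28 days, the induced arrays of this difference lay wholly below the undifferentiated arrays. How often this happens for other pairs of genes was not computed, so these counts only describe the 13 pairs. The median of the 13 differences in change was -0.28 at 14 days and -0.32 at 28 days. No p is given, since the pairs were chosen by family. Ears2 and Pars2 were not paired, since Eprs serves both glutamate and proline, and Aars2 had no cytosolic partner among the members.

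For isoleucine the difference between Iars and Iars2 was 0.81, 1.00 and 0.83 in undifferentiated cells, -0.20, -0.09 and -0.07 at 14 days and -0.21, -0.15 and -0.11 at 28 days. The cytosolic gene thus changed by -1.002 relative to the mitochondrial gene at 14 days and by -1.04 at 28 days. For leucine these were -0.85 and -0.97, and for phenylalanine, with the mean of Farsa and Farsb against Fars2, -0.79 and -0.94. Separate arrays at both times were also found for asparagine (-0.52 and -0.67), valine (-0.40 and -0.51), threonine (-0.35 and -0.26), histidine (-0.28 and -0.32) and cysteine (-0.17 and -0.37). The tyrosine difference of -0.20 at 14 days had separate arrays, and that of -0.07 at 28 days did not. For tryptophan, arginine and methionine the differences were -0.08, -0.08 and 0.08 at 14 days, and the arrays overlapped at 28 days in each of the 3.

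Serine was turned round. The difference between Sars and Sars2 was -0.40, -0.48 and -0.50 in undifferentiated cells, 0.24, -0.03 and 0.07 at 14 days and -0.02, -0.09 and -0.01 at 28 days. The mitochondrial gene fell and the cytosolic gene did not pass, so the relative change was 0.55 at 14 days and 0.42 at 28 days, with separate arrays at both times.

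**Figure D3:**
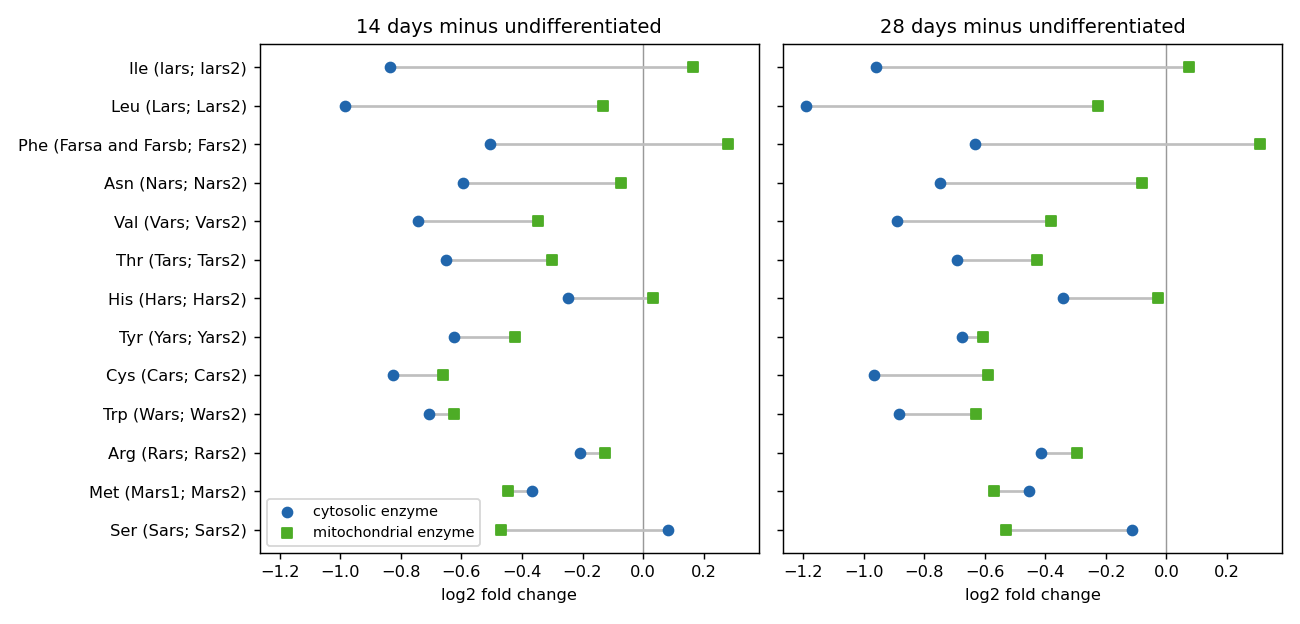
The log2 fold change of the cytosolic and the mitochondrial enzyme for each of 13 amino acids, at 14 days on the left and 28 days on the right, each against undifferentiated cells; each mark is the limma estimate from 3 arrays per group. The cytosolic mark lies to the left in 11 of 13 amino acids in both panels, with methionine and serine as the exceptions.

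Between 14 and 28 days the further change was small and was called for 5 cytosolic genes. The estimate at 28 days was lower than at 14 days in 31 of 34 genes, 18 of 18 cytosolic and 13 of 16 mitochondrial. All these estimates come from the same arrays, and the share of all genes with a lower estimate was not counted. Of the cytosolic genes 5 fell and 0 rose, beside 7.39% of all genes called (4.67% lower and 2.72% higher). These were Lars (-0.21, limma adjusted p = 0.0439), Rars (-0.21, limma adjusted p = 0.0155), Sars (-0.20, limma adjusted p = 0.0374), Gars (-0.16, limma adjusted p = 0.0423) and Nars (-0.15, limma adjusted p = 0.0437). Of the mitochondrial genes 0 of 16 passed in limma, and 3 had an unadjusted p under 0.05. The median change was -0.14 over the cytosolic genes and -0.05 over the mitochondrial genes, beside 0.00 over all genes. Without the first 14-day array, or without the third 28-day array, 0 of the 18 cytosolic genes passed, and leaving out any other array gave 1 to 3, with Gars and Nars lost in every run.

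Sars, the seryl enzyme, had no call against undifferentiated cells and was the only such member called between the times. It had -0.04, 0.01 and 0.02 in undifferentiated cells, 0.17, 0.00 and 0.07 at 14 days and -0.14, -0.11 and -0.10 at 28 days. The 28-day arrays lay below all the others, with an estimate of 0.08 (limma adjusted p = 0.241) at 14 days and -0.11 (limma adjusted p = 0.0928) at 28 days against undifferentiated cells. Neither of these passed, while the step between them did.

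Genes that work beside the synthetases moved in both directions. Their counts stand beside 17.5% of all genes called lower and 18.2% higher at 14 days, and 19.5% and 20.4% at 28 days. Of 5 measured genes for editing and synthetase-like proteins 3 rose and 1 fell at each time, and no difference from the synthetases was tested. Dalrd3, which aids a methylation of arginine tRNAs, changed by 0.56 and 0.61, Dtd1, which removes D-amino acids from tRNA, by 0.38 and 0.47, and Prorsd1, which resembles a bacterial editing domain, by 0.27 and 0.40. Tarsl2, a second cytosolic threonyl enzyme under its older name, changed by -0.57 and -0.82. The rule by symbol does not reach Tarsl2, which moved with Tars.

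Mitochondria make glutaminyl-tRNA through an amidotransferase, and of 4 measured genes for it and for formylation of the initiator tRNA 2 fell at each time, Gatc (-0.42 and -0.45) and Qrsl1 (-0.27 and -0.41). Of 6 genes for cytosolic elongation factors and their methylation 4 fell at each time, with Eef1d, an exchange factor subunit, at -0.42 and -0.60. Of 5 mitochondrial elongation factors 3 fell at 14 days and 5 at 28 days, with Gfm1, which moves the ribosome along, at -0.36 and -0.57. Of 71 mitochondrial ribosome proteins 26 fell and 6 rose at 14 days (median -0.12), and 36 fell and 6 rose at 28 days (median -0.16).

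Of 22 measured genes for tRNA maturation and export, 7 fell and 3 rose at 14 days (median -0.04) and 8 fell and 3 rose at 28 days (median -0.09). The share called was 45.5% at 14 days and 50% at 28 days, beside 35.7% and 39.9% of all genes, and the share that rose was 13.6% at each time. Pop1 and Rpp30, subunits of the RNase P that trims the 5′ end of tRNAs, changed by -0.94 and -1.07 and by -0.65 and -0.85. Xpot, the exportin for tRNA, had 0.48, 0.49 and 0.51 in undifferentiated cells, 0.00, 0.01 and -0.02 at 14 days and -0.32, -0.27 and -0.28 at 28 days. Its groups are apart, with changes of -0.50 (limma adjusted p = 1.67e-06) and -0.78 (limma adjusted p = 4.06e-08). Of 19 measured genes for RNA polymerase III, which transcribes tRNA genes, 6 fell and 3 rose at 14 days, and 10 fell and 3 rose at 28 days. The share called was 47.4% at 14 days and 68.4% at 28 days, and the share that rose was 15.8% at each time. Maf1, the repressor of that polymerase, rose by 0.64 (limma adjusted p = 3.2e-06) and 0.61 (limma adjusted p = 3.81e-06).

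The other genes of the ATF4 programme fell along with the cytosolic synthetases. Of 36 measured, 25 fell and 2 rose at 14 days (median -0.48), and 26 fell and 4 rose at 28 days (median -0.50). The counts here and in the next 2 paragraphs stand beside 17.5% of all genes called lower and 18.2% higher at 14 days. At 28 days these shares were 19.5% and 20.4%. Cth, which makes cysteine from cystathionine, had 2.70, 2.67 and 2.65 in undifferentiated cells, 0.03, 0.00 and -0.22 at 14 days and -0.90, -0.62 and -0.81 at 28 days. Its changes were -2.74 (limma adjusted p = 1.96e-09) and -3.45 (limma adjusted p = 2.55e-10), larger than that of any synthetase. Psat1, of serine synthesis, changed by -1.81 and -1.96, and Mthfd2 and Shmt2, of mitochondrial one-carbon metabolism, by -1.60 and -1.80 and by -1.33 and -1.64. Atf4 itself, singled out after its values were seen, had 0.18, 0.16 and 0.28 in undifferentiated cells, -0.18, -0.16 and -0.10 at 14 days and 0.00, -0.14 and 0.02 at 28 days. The arrays of Atf4 at both times lie below those of undifferentiated cells, and its change at 28 days was -0.25 (limma adjusted p = 0.00391). Its 14-day and 28-day arrays overlap, and the highest values at 28 days (0.00 and 0.02) lie above all those at 14 days. ATF4 is largely set by translation, which arrays do not measure.

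Kinases of eIF2 act above ATF4. Of 6 measured genes for these kinases and their partners, 2 rose and 3 fell at 14 days, and 2 rose and 4 fell at 28 days. Eif2ak3, the kinase of endoplasmic reticulum stress, rose by 0.56 and 0.63. Eif2ak4, which senses uncharged tRNA, fell by 0.23 and 0.33 on the log2 scale.

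Of 29 measured genes of Myc, its partners and ribosome biogenesis, 21 fell and 4 rose at each time, with medians of -0.55 and -0.67. Myc changed by -1.57 (limma adjusted p = 8.91e-09) and -1.59 (limma adjusted p = 5.39e-09). Dkc1, of the pseudouridine-making particles, changed by -1.25 and -1.40, and Mxd4, which competes with Myc for Max, rose by 1.10 and 1.20. Genes of dividing cells had the lowest median of the lists at both times. All 13 measured fell at each time, with medians of -1.41 and -1.94, and 12 of the 13 fell again between 14 and 28 days. Between those times 4.67% of all genes were called lower. Mki67 changed by -1.97 (limma adjusted p = 1.84e-10) and -2.92 (limma adjusted p = 1.44e-11). The part of cell division in the changes of the synthetases was not tested.

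**Figure D4:**
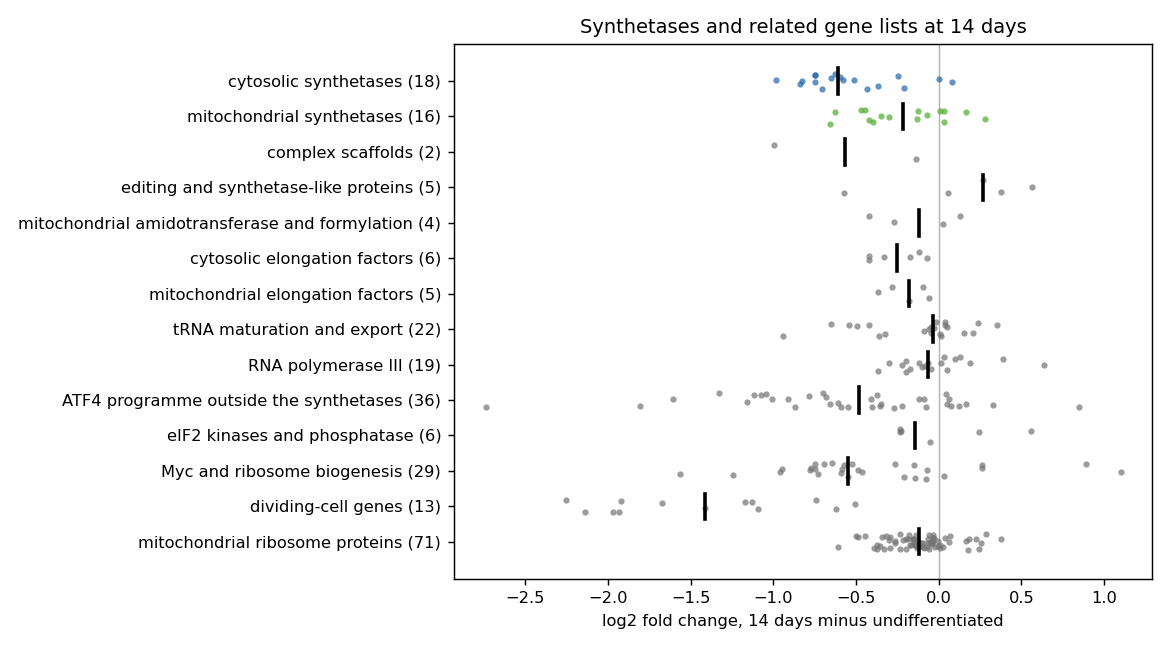
The log2 fold change at 14 days against undifferentiated cells for the cytosolic and mitochondrial synthetases and the related gene lists, with the number of measured genes in brackets. Points are genes (limma estimates from 3 arrays per group) and bars are medians; the medians lie at -0.61 for the cytosolic synthetases, -0.48 for the ATF4 programme, -0.55 for Myc and ribosome biogenesis and -1.41 for genes of dividing cells.

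The promoter windows were then read for all members in the table. TGATGNAA lies in 4 of 11 cytosolic windows (36.4%), 0 of 14 mitochondrial windows and 4.51% of the windows of 27025 genes. In the sequences printed above its match begins at position -30 in Gars and -15 in Tars, counted from the start, and at 8 in Iars and 4 in Yars. In Gars, Iars and Tars it reads on the opposite strand. The window of Yars begins its transcript 169 bases inside the outer edge of the gene. CACGTG lies in 3 of 11 cytosolic windows (Farsb, Iars and Tars, 27.3%), in 1 of 14 mitochondrial windows (Ears2, 7.14%) and in 8.09% of all windows.

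The 4 cytosolic genes with TGATGNAA changed by -0.84 to -0.63 at 14 days, with a median of -0.70. The 7 whose window lacks it (Eprs, Farsa, Farsb, Kars, Mars1, Qars and Sars) ran from -0.75 to 0.08, with a median of -0.44. The ranges overlap. The other 7 cytosolic genes, among them Lars and Cars, have no window in the table and had a median of -0.71. A match is a run of letters, and no binding was measured.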

How the data were processed

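Total RNA of 9 samples (3 undifferentiated, 3 at 14 days, 3 at 28 days; average RNA integrity number 9.9, per the labels) was measured on arrays, 1 per sample. The deposited log2 values were made with RMA, per the submitters' processing notes. Neither its software nor the step that centred each probe set on its median is given in the sources used here. The base of the log, taken as 2, and the direction of the scale are assumed. For arrays, their number limits the precision.

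The annotation supplied with the values gives 1 gene for 23521 of 33794 probe sets, several for 1814 and none for 8459. Single-gene probe sets were averaged per gene, which gave 22180 genes. All 34 members matched a RefSeq gene. A probe set assigned to several genes that matched the rule (1 in all), and synthetase genes outside the 34, are not analysed here.

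Groups were compared in R 4.3.3 by limma 3.58.1, fitting all 9 arrays at once with a mean for each group (6 residual and 3.81 prior degrees of freedom) and Benjamini-Hochberg adjustment over the 22180 genes in each comparison. Standard errors come from that fit. The 28-day arrays of 1 member tie, which understates its spread. On simulated data with 22180 genes for the 14-day comparison, the fit recovered 68% of genes changed 1.25-fold, 98% of those changed 1.5-fold and 100% of those changed 2-fold or 4-fold. Of the genes called there, 3.17% were unchanged ones. Only 50 genes were changed at each fold, while 35.7% of genes were called in the data. The recovery therefore need not hold for these data.

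All members may be named. From each related list up to 4 called genes with the largest change per comparison were named. Atf4 was added after its values were seen, and cell type markers serve to check the label. The members, lists and tests were chosen with earlier results of these data known, so no p-value is adjusted over a list and no list is tested. Alternatives were the normalization, scaling, probe set rule, variance model, groups in the fit, call threshold, replicate block and each array left out. Same-numbered arrays had deviations that correlated by -0.139 to 0.068 over 9 pairs, 0 of them over 0.1, so the numbers were not taken to pair the samples.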

Additional observations from a re-analysis of the deposited data

Results flagged for a closer look

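The values differed between 14 and 28 days of induction, by the limma test of 28 days minus 14 days, for 5 cytosolic genes. Time in culture differs along with the length of induction, and these cannot be told apart here. The differences were -0.21 for Lars (limma adjusted p = 0.0439), -0.21 for Rars (limma adjusted p = 0.0155), -0.20 for Sars (limma adjusted p = 0.0374), -0.16 for Gars (limma adjusted p = 0.0423) and -0.15 for Nars (limma adjusted p = 0.0437), on the log2 scale. In each of the 5 genes all 3 arrays at 28 days lay below all 3 at 14 days. The test used these same arrays, so this adds no support. Counting the 5, the arrays of the 2 times were separate in 11 of 18 cytosolic genes. The share over all genes was not counted. None of the 5 reached 1.5-fold, and with the adjusted p held under 0.01 0 of them passed. With each array left out in turn, 0 to 3 cytosolic genes passed, and Gars and Nars were lost in every run.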

How the results depend on the processing

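The falls called against undifferentiated cells held their direction in every setting tried, and the counts moved mainly with the fold asked for and with the normalization. A limma test against a change of 1.5-fold (treat) left 5 cytosolic and 0 mitochondrial genes at 14 days, 9 and 0 at 28 days, and 0 and 0 between 28 and 14 days. Asking for an adjusted p under 0.05 and at least 1.5-fold left 10 cytosolic and 2 mitochondrial genes at 14 days, 3 mitochondrial genes at 28 days and 0 cytosolic genes between the times. After quantile normalization the medians were -0.34 (cytosolic, 14 days), -0.15 (mitochondrial, 14 days) and -0.47 (cytosolic, 28 days), 1 mitochondrial gene passed between the times, and 5200, 5662 and 2048 of all genes were called at 14 days, at 28 days and between them, against 7920, 8845 and 1639. Such a step gives centred arrays the same spread and can shrink the changes against undifferentiated cells by itself. With genes of 1 probe set only the mitochondrial median at 14 days was -0.30, since Nars2 leaves the list. Between 28 and 14 days the cytosolic count of 5 was 2 with only these groups in the fit and 0 at an adjusted p under 0.01, and the mitochondrial count of 0 was 1 with only these groups and 1 with array weights. With the replicate number as a block, which the arrays do not bear out as a pairing, the cytosolic count between the times was 1 (Rars), and no call against undifferentiated cells changed. With each array left out in turn, the cytosolic genes called numbered 16 in every run at 14 and at 28 days, and 0 to 3 between the times. The mitochondrial genes numbered 9 to 11 at 14 days, 10 to 11 at 28 days and 0 to 1 between the times. Ears2 passed between the times without the second undifferentiated array, and Lars2 at 14 days with array weights. Arrays and their number, 3 per group, limit what can be seen.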
